A study of Mus musculus with 50 samples.

Results

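The genes examined here encode the pore-forming α1 subunits of voltage-gated calcium channels. The 8 members, taken by gene symbol from the deposited count tables, were Cacna1a, Cacna1b, Cacna1c, Cacna1d, Cacna1e, Cacna1g, Cacna1h and Cacna1i, out of 24552 genes listed. All 8 passed the filter on low counts in every comparison, so none was lost to low expression. Voltage-gated calcium channels open when the membrane depolarises and admit calcium, which triggers transmitter release at terminals and calcium signalling in the soma and dendrites. The α1 subunit forms the pore and sets the class of the channel, whereas β and α2δ subunits assist its folding, its traffic to the membrane and its gating. In medium spiny neurons (MSNs), the principal neurons of the nucleus accumbens (NAc), L type channels are known for coupling depolarisation to gene expression and as targets of dopamine receptor signalling, and N, P/Q and R type channels for transmitter release and dendritic calcium entry.

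The libraries came from the RiboTag (RT) approach, in which Cre recombinase switches on an HA-tagged ribosomal protein in the cells that express it, so that an HA antibody precipitates the ribosome-bound mRNA of those cells (the IP). C57BL/6 mice of genotype RT; D1-Cre or RT; D2-Cre, aged 8-12 weeks, carried Cre from bacterial artificial chromosome transgenes built on the dopamine receptor genes Drd1 (line FK150) and Drd2 (line ER44). Mice were left undefeated (Con) or went through chronic social defeat stress (CSDS), daily encounters with an aggressor for up to 10 days, and were then sorted by social interaction into susceptible (Sus) and resilient (Res) mice. Each library pooled NAc punches of 2 mice. There were 4 D1-IP Con, 4 D1-IP Res and 5 D1-IP Sus libraries, 5 D2-IP libraries in each of Con, Res and Sus, and 3 input libraries (total RNA of the NAc tissue, from the lysate left over from the IP) for each line and stress group. A further 4 D1-IP libraries, labelled Sirt1-KO, came from male RT; Sirt1-floxed; D1-Cre mice without defeat, with no age given, and were set against the 4 D1-IP Con libraries. The mice compared in every contrast carried the RT allele and a Cre transgene, the Con mice included.

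Depth was 21591075 to 31009626 reads on genes in the IPs and 18384265 to 28179940 in the inputs. Drd1 and Drd2 were each higher in the IP of their own line. Drd1 was 332 CPM (counts scaled to library size) ± 29.4 (SD, n = 13) in D1-IP and 134 ± 21.15 (n = 15) in D2-IP, and Drd2 was 97.8 ± 11.85 in D1-IP and 343.5 ± 27.7 in D2-IP. Markers of other cell types were read in the IPs as well, however, at levels that differed between the lines. Such levels cannot tell cell content from expression within cells. The 4 D2-MSN markers (Drd2, Adora2a, Penk, Gpr6) summed to 2061 to 3471 CPM in D1-IP, above the 776 to 1324 in inputs. In D2-IP they summed to 5647 to 7999. The 4 D1-MSN markers (Drd1, Tac1, Pdyn, Chrm4) summed to 1101 to 1553 CPM in D1-IP. In D2-IP they gave 396 to 638, against 449 to 703.5 in inputs. The summed level of 4 markers of cortical excitatory neurons (Slc17a7, Tbr1, Neurod6, Emx1) ran from 368 to 1321 CPM in D1-IP, with a median of 704, from 20.05 to 285 in D2-IP, with a median of 183, and from 66.6 to 1042 in the inputs, and no member of the list was at 0 throughout. The 5 markers of cholinergic interneurons summed to 27.7 to 55.1 CPM in D1-IP and 61.9 to 134 in D2-IP. Glial lists stood far below the inputs in both lines, with astrocyte markers at 37.9 to 95.8 CPM in the IPs against 791 to 1010 in the inputs. The 4 IP libraries numbered 5 (D1-IP Sus, D2-IP Con, D2-IP Res and D2-IP Sus) stood high in several members, and D1-IP Con and D1-IP Res hold no library of that number. They were also high in reads on no feature. D1-IP Sus replicate 5 had 13.9%, against 10.4% to 12.3% in the other D1-IPs. The D2-IPs of that number had 15.8% (Con), 17.1% (Res) and 17.6% (Sus), against 11.1% to 16.8% in the other D2-IPs.

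The members fall into 3 classes by the current they carry. The L type genes were Cacna1c, encoding Cav1.2 (chromosome 6, 118587240 to 119196418, minus strand, GRCm38), and Cacna1d, encoding Cav1.3 (chromosome 14, 30039939 to 30491455, minus strand). The P/Q, N and R type genes were Cacna1a, encoding Cav2.1 (chromosome 8, 84388440 to 84640246, plus strand), Cacna1b, encoding Cav2.2 (chromosome 2, 24603887 to 24763152, minus strand), and Cacna1e, encoding Cav2.3 (chromosome 1, 154390731 to 154884501, minus strand). The T type genes, whose channels open at more negative potentials, were Cacna1g, encoding Cav3.1 (chromosome 11, 94408391 to 94474198, minus strand), Cacna1h, encoding Cav3.2 (chromosome 17, 25374285 to 25433783, minus strand), and Cacna1i, encoding Cav3.3 (chromosome 15, 80287238 to 80398279, plus strand). Annotated exons of Cacna1a, Cacna1c, Cacna1d and Cacna1h overlap a gene on the opposite strand (Gm16183, Dcp1b, Chdh and Dcp1a, and Tpsg1 in that order), and whether reads were counted by strand was not stated. The remaining α1 genes of the family were barely read. Cacna1f, known from retina, had 0 to 3 counts per IP library and 1 to 9 per input, and Cacna1s, the skeletal muscle gene, had 2 to 23 and 4 to 35.

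All 8 members were well expressed in both kinds of MSN ribosome fraction. Compared per length, as CPM per kb of merged exons, Cacna1i stood first in D1-IP at 18.3 ± 0.82 (SD, n = 13), followed by Cacna1b at 16.3 ± 0.74, Cacna1e at 14.7 ± 2.46, Cacna1h at 12.35 ± 1.085, Cacna1a at 12.2 ± 0.84, Cacna1c at 7.76 ± 0.75, Cacna1g at 4.79 ± 0.92 and Cacna1d at 4.00 ± 0.35. In D2-IP (n = 15) the same 6 genes led in the same order, from Cacna1i at 19.0 ± 1.88 to Cacna1c at 9.79 ± 1.29, but Cacna1d at 4.63 ± 0.68 came before Cacna1g at 3.25 ± 0.65. In the inputs (n = 18) Cacna1e led at 17.9 ± 1.21, then Cacna1b at 15.4 ± 0.59, Cacna1a at 14.25 ± 0.97, Cacna1h at 13.1 ± 0.83, Cacna1i at 12.4 ± 0.92, Cacna1g at 6.94 ± 1.18, Cacna1c at 6.55 ± 0.47 and Cacna1d at 5.28 ± 0.44. Neighbours in these orders differed by less than the larger of their SDs for Cacna1b and Cacna1e in both IPs, Cacna1h and Cacna1a in both IPs, Cacna1e and Cacna1h and then Cacna1g and Cacna1d in D1-IP, and Cacna1h and Cacna1i and then Cacna1g and Cacna1c in the inputs. Cacna1i was above Cacna1b within 13 of 13 D1-IP and 14 of 15 D2-IP libraries. The upper part of the order rests on the gene model, since with the longest transcript as the length Cacna1e came first in all 3 kinds of library (24.9, 27.4 and 30.3 CPM per kb in D1-IP, D2-IP and input).

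Summed per kb, T type genes made up 39.25% ± 1.73 (SD, n = 13) of the 8-gene total in D1-IP, 36.95% ± 1.33 (n = 15) in D2-IP and 35.3% ± 1.16 (n = 18) in the inputs. L type genes took 13.0% ± 0.62, 15.3% ± 0.74 and 12.9% ± 0.40, with the highest D1-IP share at 14.2% and the lowest D2-IP share at 14.6%, so the lines did not overlap. The P/Q, N and R type genes took 47.8% ± 1.46, 47.7% ± 1.19 and 51.8% ± 1.02. These shares rest on merged exons as the length and were not computed with the longest transcript. With that length single members moved by more than their SD, such as Cacna1e in D1-IP from 14.7 to 24.9 CPM per kb.

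**Figure D1:**
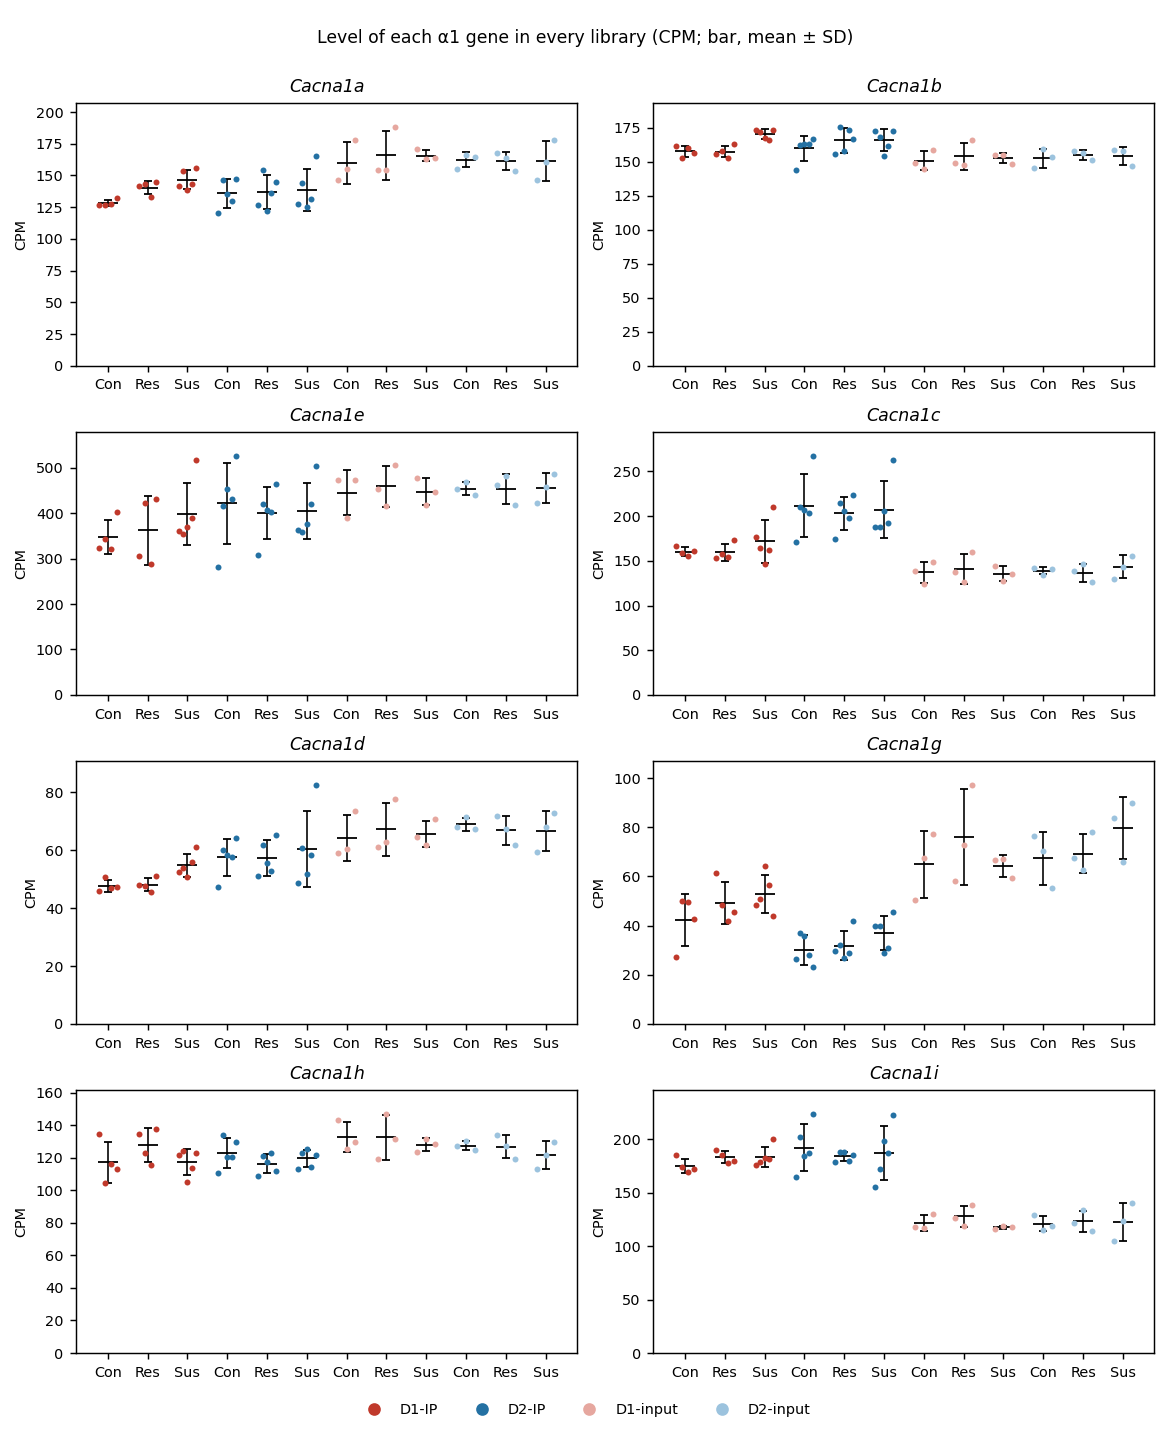
Level of each α1 gene in every library, in CPM on a linear axis from 0, with Con, Res and Sus groups of D1-IP, D2-IP, D1-input and D2-input from left to right. Points are libraries and bars give mean ± SD. Cacna1c is highest in D2-IP, Cacna1g is lowest in D2-IP and highest in input, Cacna1i is higher in every IP than in any input, and single high points in Cacna1e, Cacna1c, Cacna1d and Cacna1i belong to libraries numbered 5.

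The first comparison asked how the 2 MSN types differ. Averaged over the stress groups, 3 of 8 members passed the test (edgeR quasi-likelihood test, Benjamini-Hochberg adjusted p under 0.05). Both L type genes were lower and the T type gene Cacna1g was higher in D1-IP than in D2-IP, while the P/Q, N and R type genes and the other T type genes were not called. The share of called members is near the background, since 40.8% of the 14224 genes tested were called (19.6% higher and 21.3% lower in D1-IP). Within single stress groups 1 member was called in Con, 2 in Res and 2 in Sus, where 14%, 17.5% and 17.6% of genes were. None of the 3 reached a fold of 1.5. The median log2 fold change of the 8 members was -0.05, against -0.02 over all genes.

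Cacna1c, whose channel is the most abundant L type channel of brain, had 154.9 to 166.8 CPM in the 4 D1-IP Con libraries (median 160), 152.8 to 173.2 in the 4 Res and 146.3, 162.2, 164.6, 176.5 and 210.0 in the 5 Sus libraries. In D2-IP it ran from 170.8 to 267.2 in Con (median 207), from 174.9 to 223.1 in Res (median 206) and from 187.6 to 263.0 in Sus (median 192). All D1-IP Con libraries were below all D2-IP Con libraries, and all D1-IP Res below all D2-IP Res, a separation that 12.9% of genes in Con and 16.8% in Res showed in either direction (5.6% and 6.71% in this one). In Sus the groups overlapped through D1-IP Sus replicate 5, at 210. The log2 fold change over the stress groups was -0.35 (SE 0.060, adjusted p = 2.2e-05), which is 21.8% lower in D1-IP, and it was called when any of the 28 libraries was left out, as were Cacna1d and Cacna1g. Within the stress groups it was -0.42 in Con (SE 0.11, adjusted p = 0.0078), -0.36 in Res (SE 0.11, adjusted p = 0.017) and -0.29 in Sus (SE 0.099, adjusted p = 0.044). The Sus call was lost when any of 11 single libraries was left out, most of all D2-IP Sus replicate 5 (-0.18, adjusted p = 0.20), and the Res call without D1-IP Res replicate 1, D1-IP Res replicate 3 or D2-IP Res replicate 5 (adjusted p = 0.053 to 0.056). Without the 4 libraries numbered 5 the difference over the stress groups was -0.30 (SE 0.038), and the calls in Con, Res and Sus all held.

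Cacna1d, whose channel opens at lower voltages than Cav1.2, was the least abundant member per length in D1-IP. Its levels were 45.99 to 50.6 CPM in D1-IP Con, 45.6 to 51.1 in D1-IP Res and 50.6 to 61.0 in D1-IP Sus, against 47.1 to 64.3 in D2-IP Con, 50.9 to 65.4 in D2-IP Res and 48.6 to 82.4 in D2-IP Sus. The lines overlapped in each stress group, with D1-IP at the low end in Con and Res. In Sus the D1-IP range lay inside that of D2-IP. The log2 fold change over the stress groups was -0.23 (SE 0.060, adjusted p = 0.0025), and it was -0.16 (SE 0.043, adjusted p = 0.0035) without libraries numbered 5. No single stress group passed, with adjusted p = 0.077 in Con, 0.086 in Res and 0.30 in Sus. The Con value passed without D2-IP Con replicate 1 (-0.34, adjusted p = 0.028) or D2-IP Sus replicate 5 (-0.28, adjusted p = 0.018), and the Res value without the latter (-0.26, adjusted p = 0.023).

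Cacna1g went the other way. Its channel, Cav3.1, carries low-threshold calcium current and supports burst firing in several brain regions. It had 27.4, 42.7, 49.5 and 50.2 CPM in D1-IP Con, 41.7, 45.4, 48.4 and 61.5 in D1-IP Res and 43.9 to 64.2 in D1-IP Sus (median 50.7). D2-IP libraries ran from 23.0 to 36.9 in Con, 26.7 to 41.7 in Res and 28.8 to 45.4 in Sus. D1-IP was mostly above D2-IP, and the Con groups overlapped through a single low library, D1-IP Con replicate 1 at 27.4. In Res the lowest D1-IP library (41.75) was just above the highest D2-IP library (41.68), as for 10.1% of genes in that direction. The log2 fold change was 0.53 (SE 0.095, adjusted p = 4.3e-05), 44.9% higher in D1-IP, and 0.60 (SE 0.089) without libraries numbered 5. By stress group it was 0.49 in Con (SE 0.17, adjusted p = 0.051), 0.62 in Res (SE 0.17, adjusted p = 0.010) and 0.50 in Sus (SE 0.16, adjusted p = 0.027). Without D1-IP Con replicate 1 the Con value was 0.66 (adjusted p = 0.0046), and the Con call was also gained without any of 9 other libraries. The Res call was lost without D1-IP Res replicate 1 (adjusted p = 0.067), and the Sus call without D1-IP Sus replicate 3 or 4 or D2-IP Sus replicate 3 or 4 (adjusted p = 0.060 to 0.098).

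The summed cortical excitatory markers differed between the lines in the same direction as Cacna1g and did not overlap (368 to 1321 CPM in D1-IP, 20.05 to 285 in D2-IP), so the line and this marker level cannot be told apart across the IPs. Within a line, Cacna1c, Cacna1d and Cacna1g were not related to the markers at an adjusted permutation p under 0.05, with Pearson's r of -0.28, 0.23 and 0.65 in the 13 D1-IPs and 0.25, 0.43 and -0.063 in the 15 D2-IPs. The value of 0.65 for Cacna1g rests on the 2 libraries farthest from the median marker level, without which r was -0.0093. The D2-IP library lowest in the markers, D2-IP Sus replicate 1 at 20.05 CPM, had 39.9 CPM of Cacna1g, toward the upper end of the D2-IPs. The D2-IP highest in the markers, Sus replicate 5 at 285 CPM, had the most Cacna1g, at 45.4. In D1-IP, Con replicate 1 was lowest in both (368 and 27.4 CPM) and Sus replicate 3 highest in both (1321 and 64.2 CPM). Whether the markers have a part in the Cacna1g difference was not tested. Cholinergic markers moved with the lines as well, with Chat, the acetylcholine-synthesising enzyme, at 2.42 CPM ± 1.36 (SD, n = 13) in D1-IP and 23.9 ± 4.73 (n = 15) in D2-IP, and their part was not tested either.

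The other 5 members were not called, 4 of them with log2 fold changes between -0.07 and -0.0014. Cacna1a (Cav2.1, the presynaptic P/Q type channel) was 126.6 to 155.9 CPM in D1-IP and 120.8 to 165.6 in D2-IP, and its log2 fold change was -0.0014 with a 95% interval of -0.08 to 0.08. Cacna1b (Cav2.2, the N type channel of terminals) gave -0.03, with an interval of -0.08 to 0.02. Cacna1h (Cav3.2) gave -0.0020, with -0.08 to 0.07, and Cacna1i (Cav3.3), at 169.3 to 199.9 CPM in D1-IP and 155.4 to 223.3 in D2-IP, gave -0.07, with -0.15 to 0.01. Cacna1e (Cav2.3, the R type channel) was the most variable, at 287.9 to 517.9 CPM in D1-IP and 282.1 to 525.7 in D2-IP, and its value of -0.16 (SE 0.084, adjusted p = 0.13) had an interval of -0.33 to 0.0026. It passed when D1-IP Sus replicate 5 (-0.20, adjusted p = 0.043) or D2-IP Con replicate 1 (-0.20, adjusted p = 0.034) was left out. In the inputs, where both lines should hold the same tissue, no member differed between D1-input and D2-input (0 of 8 called, 0.0199% of genes called). The log2 fold changes of the members lay between -0.07 for Cacna1g and 0.07 for Cacna1h.

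**Figure D2:**
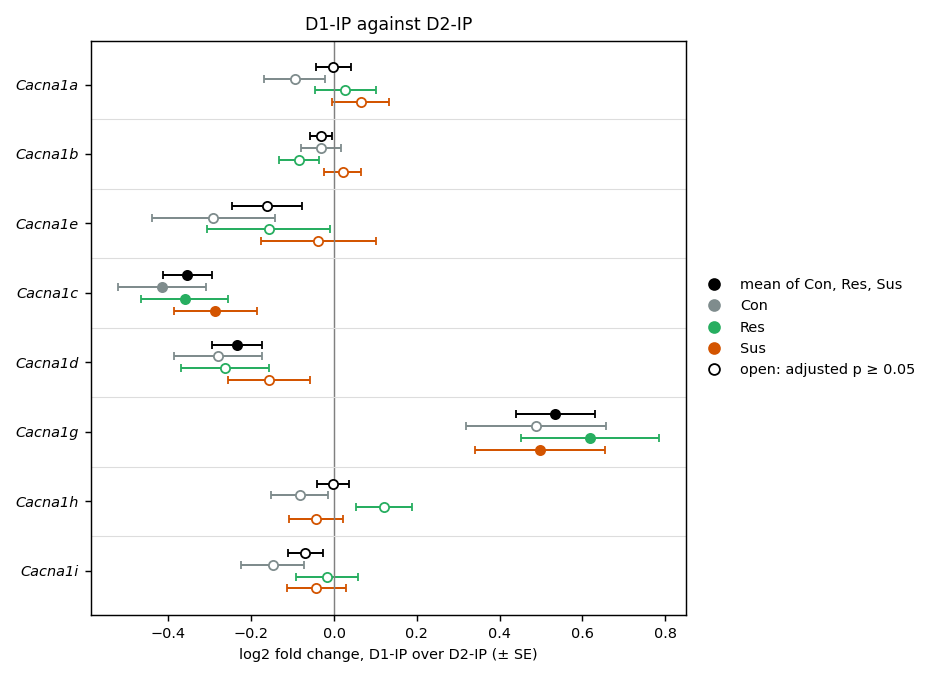
Log2 fold change of each α1 gene in D1-IP over D2-IP, with bars of ± SE, for the mean of the stress groups and for Con, Res and Sus apart. Filled points had an adjusted p under 0.05. Cacna1c and Cacna1d lie to the left of 0 and Cacna1g to the right in every stress group.

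The accessory genes of the channel were followed as a list of 33, of which 32 were tested, with 8 higher and 17 lower in D1-IP, where 19.6% of all genes were higher and 21.3% lower. The median log2 fold change of the list was -0.13, against -0.02 over all genes. Of the 4 β subunit genes, Cacnb3 was higher and Cacnb1, Cacnb2 and Cacnb4 were lower, none by more than 0.24 on the log2 scale. Of the 4 α2δ genes, Cacna2d1 was higher in D1-IP (276 against 219 CPM, log2 fold change 0.32, SE 0.064, adjusted p = 0.00017), Cacna2d2 was lower (156 against 228 CPM, -0.56, SE 0.051, adjusted p = 5.3e-10) and Cacna2d3 was lower (390 against 451.5 CPM, -0.22, SE 0.039, adjusted p = 4.2e-05). Among the 8 γ family genes, several of which act as AMPA receptor auxiliary subunits, 1 was higher and 4 were lower. Of 10 channel regulators tested, 5 were higher and 3 lower. Of 6 intracellular release channels, the ryanodine and inositol trisphosphate receptors, 5 were lower and none higher. The largest called differences were for Cacng6 (0.78 against 0.30 CPM, 1.35), Stac3 (0.38 against 0.70 CPM, -0.95), Rrad (0.52 against 0.28 CPM, 0.86) and Cabp1 (77.2 against 49.6 CPM, 0.62), of which only Cabp1, a calcium-binding protein that modulates Cav channels, was read at more than 1 CPM.

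The second comparison set each IP against its input, which asks which members are richer in the IP of a line than in the whole tissue. These values cannot separate more mRNA per cell from a larger share of the cells that use the gene, in the IP as in the bulk input. Cacna1i rose in both lines. It was 169.3 to 199.9 CPM in D1-IP and 155.4 to 223.3 in D2-IP, against 115.8 to 138.0 in D1-input and 104.5 to 140.0 in D2-input. Every IP library was above every input of its line, as for 48.3% of genes in D1 and 44.3% in D2 in either direction. The log2 fold changes were 0.56 in D1 (SE 0.050, adjusted p = 2.5e-13) and 0.62 in D2 (SE 0.049, adjusted p = 7.5e-15).

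Cacna1c also rose in both, by 0.25 in D1 (SE 0.064, adjusted p = 0.00060) and by 0.57 in D2 (SE 0.063, adjusted p = 8.6e-11). With Con libraries alone its D1 value was 0.23 and was not called (adjusted p = 0.051). The inputs of Cacna1c held 124.3 to 159.6 CPM in D1 and 126.1 to 155.9 in D2, so the D2-IPs, from 170.8 upwards, did not overlap their inputs. Cacna1g fell in both, by 0.51 on the log2 scale in D1 (SE 0.11, adjusted p = 3.9e-05) and by 1.13 in D2 (SE 0.10, adjusted p = 4.3e-13). Its inputs held 50.3 to 97.1 CPM in D1 and 55.3 to 89.9 in D2, above every D2-IP library, the highest of which had 45.4.

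The remaining members changed less. Cacna1a fell by 0.24 in both lines (SE 0.048 in D1 and 0.046 in D2, adjusted p = 1.5e-05 and 1.2e-05), and Cacna1d fell by 0.39 in D1 (SE 0.065, adjusted p = 9e-07) and by 0.21 in D2 (SE 0.063, adjusted p = 0.0027). Cacna1b rose by 0.09 in each line (adjusted p = 0.0080 in D1 and 0.0048 in D2), a size that went to 0.0014 and 0.012 when genes averaging under 50 counts were left out of the fit. Its D1 call was also lost with RLE factors (adjusted p = 0.066), DESeq2 (adjusted p = 0.060) or Con libraries alone (adjusted p = 0.32). Such shifts were not particular to Cacna1b. Over the alternatives the D1 values of Cacna1a ran from -0.33 to -0.21 and those of Cacna1i from 0.48 to 0.60. Cacna1e was lower in the IP by 0.29 in D1 (SE 0.085, adjusted p = 0.0021). In D2 its value of -0.15 was not called (adjusted p = 0.084), but it was called with IP and input of the same pool as a block (-0.26, adjusted p = 0.0014). That block fit left out the IPs without an input. Cacna1h gave -0.12 in D1 (SE 0.043, adjusted p = 0.010), a call lost without D1-IP Res replicate 2 or D1-input Con replicate 1 (adjusted p = 0.051 and 0.071), and -0.07 in D2 (adjusted p = 0.14). With genes averaging under 50 counts left out, both uncalled values in D2 passed, at -0.23 for Cacna1e (adjusted p = 0.010) and -0.14 for Cacna1h (adjusted p = 0.0021). Thus 8 of 8 members were called in D1 and 6 of 8 in D2, against a background of 81.9% and 82.7% of 15404 genes. Most genes are called in this comparison, and a call on its own says little about the members.

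The difference of the 2 enrichments, tested as an interaction, passed for 2 of 8 members against a background of 25.5%. Cacna1c was enriched less in D1 than in D2 (-0.32, SE 0.089, adjusted p = 0.0059) and Cacna1g was depleted less (0.62, SE 0.15, adjusted p = 0.0017). The D1-IP and D2-IP values are the same as those of the first comparison, so this is no second observation of it. In the 15 Con libraries alone the values were -0.40 and 0.53 and neither passed (adjusted p = 0.10 and 0.27). Of the 32 accessory genes tested, 27 were called in D1 (15 higher, 12 lower) and 28 in D2 (16 higher, 12 lower), near the background of 81.9% and 82.7%. Their median log2 fold changes were 0.10 and 0.12, against -0.04 and -0.08 over all genes. All 4 β subunit genes were higher in D1-IP than input and 3 of 4 in D2-IP. The largest called differences in D1 were Stac3 (-3.01), Itpr3 (-2.31), Itpr2 (-1.95) and Ryr1 (-1.37), and in D2 Stac3 (-1.97), Cacng1 (1.87), Itpr3 (-1.87) and Itpr2 (-1.58).

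**Figure D3:**
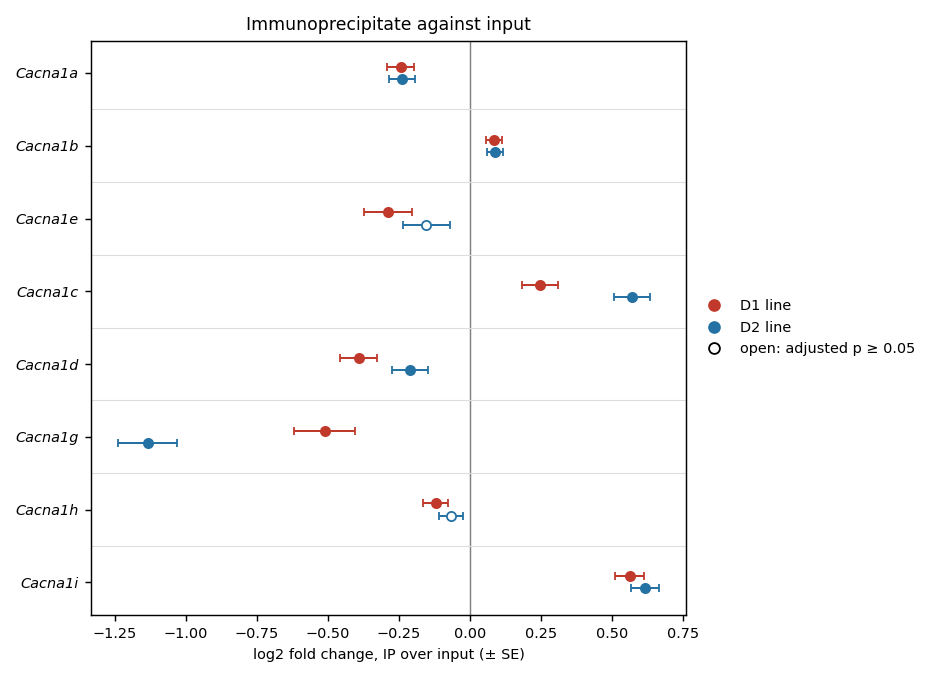
Log2 fold change of each α1 gene in IP over input, with bars of ± SE, for the D1 line and the D2 line. Filled points had an adjusted p under 0.05. Cacna1i and Cacna1c lie to the right of 0 in both lines, Cacna1g lies furthest to the left, and the lines part most at Cacna1c and Cacna1g.

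The third comparison was of stress. No member passed at an adjusted p under 0.05 in any of the 3 contrasts of Con, Res and Sus within D1-IP or D2-IP. Across all genes edgeR called 0% in each contrast except D1-IP Res vs Con, with 1 gene called (0.00703%). The members' values are therefore given beside the spread, with the count at an unadjusted p under 0.05. In D1-IP Sus vs Con, 2 of 8 members had an unadjusted p under 0.05, against 5.34% of genes, both with higher values in Sus, and 7 of the 8 log2 fold changes were above 0 with a median of 0.15, against -0.00041 over all genes.

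In D1-IP Sus vs Con the members with such a p were Cacna1a and Cacna1b, while Cacna1e of the same class had none. With each of the 28 libraries left out in turn, Cacna1a kept such a p in 28 fits and Cacna1b in 24. Without D1-IP Con replicate 2 the value of Cacna1b was 0.09 (unadjusted p = 0.095). Cacna1a had 126.6 to 131.9 CPM in Con (median 127), 132.9 to 144.6 in Res and 138.8 to 155.9 in Sus (median 144). Every Res and every Sus library was above every Con library, a separation in the higher direction that 0.703% of genes showed for Res and 1.01% for Sus. The log2 fold change was 0.19 for Sus (SE 0.074, unadjusted p = 0.015, adjusted p = 0.85) and 0.13 for Res (SE 0.078, unadjusted p = 0.099). In D1-IP Res vs Con no member had an unadjusted p under 0.05, against 2.11% of genes. Cacna1b had 152.6 to 161.9 CPM in Con, 153.0 to 162.7 in Res and 165.7 to 173.5 in Sus. Sus libraries were above all Con and all Res libraries, as for 1.01% and 0.794% of genes in that direction. The values were 0.11 against Con (SE 0.048, unadjusted p = 0.033, adjusted p = 0.85) and 0.11 against Res (SE 0.048, unadjusted p = 0.029, adjusted p = 0.999). In the latter contrast 1 of 8 members and 4.23% of genes had such a p.

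Cacna1d was 45.99 to 50.6 CPM in D1-IP Con and 50.6 to 61.0 in Sus, with a log2 fold change of 0.19 (SE 0.11, unadjusted p = 0.077). Cacna1g had 0.31 (SE 0.17, unadjusted p = 0.072), and its 4 Con libraries held both the lowest D1-IP value and values inside the Sus range. Without that lowest library, D1-IP Con replicate 1, the value was 0.15 (unadjusted p = 0.34), and over all single libraries left out it ran from 0.15 to 0.40. Libraries numbered 5 stand only in the Sus group of D1-IP. Without them the values were 0.17 for Cacna1a (unadjusted p = 0.015), 0.10 for Cacna1b (0.0499), 0.15 for Cacna1d (0.048) and 0.37 for Cacna1g (0.021), and Cacna1e went from 0.19 to 0.08. This fit was chosen after seeing the data. The share of all genes with such a p in it is not given here, so these p have no background beside them. The summed cortical excitatory markers were 368 to 1023 CPM in D1-IP Con, 449 to 833 in Res and 608 to 1321 in Sus, and their part in these values was not tested. None of the 15 marker lists was apart between Con and Sus or between Con and Res in either IP.

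In D2-IP no member had an unadjusted p under 0.05 in any contrast, against 3.68% of genes in Sus vs Con, 3.02% in Res vs Con and 1.66% in Sus vs Res. In no contrast were the groups of a member apart, against 0.478%, 0.457% and 0.197% of genes. Values ran from -0.06 for Cacna1e to 0.30 for Cacna1g (SE 0.16, unadjusted p = 0.069) in Sus vs Con and from -0.08 for Cacna1h to 0.08 for Cacna1g in Res vs Con. Cacna1g was 23.0 to 36.9 CPM in D2-IP Con and 28.8 to 45.4 in Sus, and overlapped; without libraries numbered 5 its value was 0.14. The test of whether a stress difference was unlike in the 2 lines called no gene at an adjusted p under 0.05. In it Cacna1h, at 104.5 to 134.7 CPM in D1-IP Con, 115.4 to 137.6 in D1-IP Res, 110.7 to 134.0 in D2-IP Con and 108.9 to 123.2 in D2-IP Res, had a difference of 0.20 for Res vs Con (SE 0.097, unadjusted p = 0.044, adjusted p = 0.9995), with 2.36% of genes at such a p, and 0.17 (unadjusted p = 0.12) without libraries numbered 5. For Sus vs Con the differences ran from 0.01 for Cacna1g to 0.25 for Cacna1e, with unadjusted p from 0.125 to 0.97 (1.82% of genes had one under 0.05). In the inputs no stress contrast called a gene, no member had an unadjusted p under 0.05 (4.51% of genes in Sus vs Con, 3.25% in Res vs Con and 5.47% in Sus vs Res), and member values lay between -0.06 and 0.14. Of the accessory genes 0 of 32 were called in any stress contrast of the IPs, and 4 had an unadjusted p under 0.05 in D1-IP Sus vs Con, all with higher values in Sus, where 5.34% of genes had such a p.

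**Figure D4:**
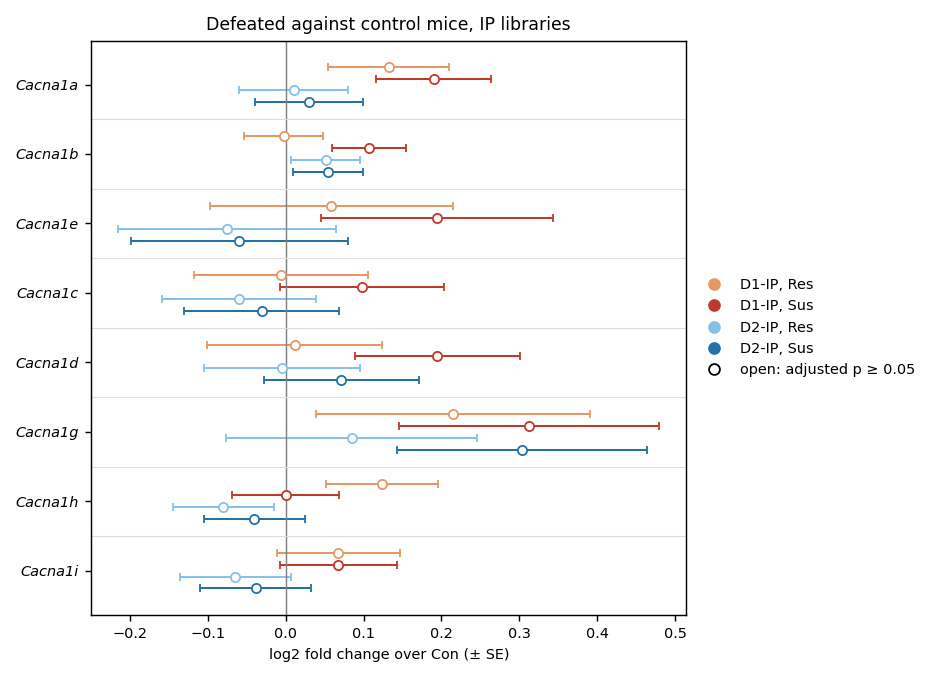
Log2 fold change of each α1 gene in Res or Sus over Con, with bars of ± SE, in D1-IP and D2-IP. All points are open because no member had an adjusted p under 0.05. Cacna1g is highest in Sus of both lines, at 0.31 in D1-IP and 0.30 in D2-IP, with SEs of 0.17 and 0.16.

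The last comparison was of the libraries labelled Sirt1-KO with D1-IP Con, on the scale of their own table. Genotype and any difference in date or sequencing run between these groups cannot be told apart. Sirt1, the NAD-dependent deacetylase that the label names, was checked first. It had 13.1, 14.4, 14.8 and 16.6 CPM in the Con libraries and 10.2, 13.2, 15.2 and 16.2 in those labelled Sirt1-KO, and its log2 fold change was -0.10 (SE 0.13, adjusted p = 0.77). The groups overlapped, so the counts over the whole gene did not show a loss. Which exon is floxed was not given, and counts over a gene need not fall where 1 exon is removed from the transcript. No member was called, against 1.66% of 13626 genes. Of the 8, 3 had an unadjusted p under 0.05, against 17.3% of genes, and all 3 values were above 0.

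Cacna1a had 119.9 to 125.5 CPM in Con and 125.0, 142.9, 143.3 and 147.0 in the libraries labelled Sirt1-KO, which overlapped by the lowest library (log2 fold change 0.20, SE 0.058, unadjusted p = 0.0056, adjusted p = 0.11). Cacna1d had 43.5, 44.5, 45.0 and 48.0 CPM in Con and 48.8, 49.5, 54.6 and 62.2 in the others. Its groups were apart, as for 4.44% of genes in that direction (0.25, SE 0.080, unadjusted p = 0.0089, adjusted p = 0.13). Cacna1e had 304.5 to 382.4 CPM against 340.5 to 424.2 and overlapped (0.23, SE 0.086, unadjusted p = 0.022, adjusted p = 0.20). Cacna1g, at 25.9, 40.6, 46.9 and 47.5 CPM against 39.0, 47.2, 59.1 and 69.8, had 0.42 (SE 0.20, unadjusted p = 0.056), which was 0.26 without D1-IP Con replicate 1 (unadjusted p = 0.14). Cacna1h was the only member with a value below 0, -0.18 (SE 0.083, unadjusted p = 0.057). Cacna1b, Cacna1c and Cacna1i lay between 0.02 and 0.14.

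Marker levels differed between these groups too, and they cannot tell cell content from expression within cells. Of 15 marker lists, 4 had summed levels that did not overlap, a count with no background share beside it. Markers of D1-MSNs were 1192 to 1469 CPM in Con and 896 to 1122 in the libraries labelled Sirt1-KO, those of cholinergic interneurons 32.9 to 34.4 and 20.3 to 25.95, those of choroid plexus 8.64 to 11.6 and 6.92 to 8.32, and those of somatostatin and NPY interneurons 97.2 to 127 and 135 to 163. Markers of MSNs of either type overlapped, at 4744 to 6129 CPM in Con and 3715 to 5385 in the others. So did those of neurons, at 3737 to 4346 and 3964 to 4708. Cortical excitatory markers overlapped as well, at 348 to 969 CPM in Con and 789 to 1497 in the others. Their part in the members' values was not tested. The same Con libraries serve the stress contrasts above, so the members' values in Sus vs Con and here share their reference. Of the 31 accessory genes tested, Rims1, a presynaptic scaffold that tethers Cav2 channels, was the 1 called, at 91.4 against 70.2 CPM (0.38, SE 0.080, adjusted p = 0.039).

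**Figure D5:**
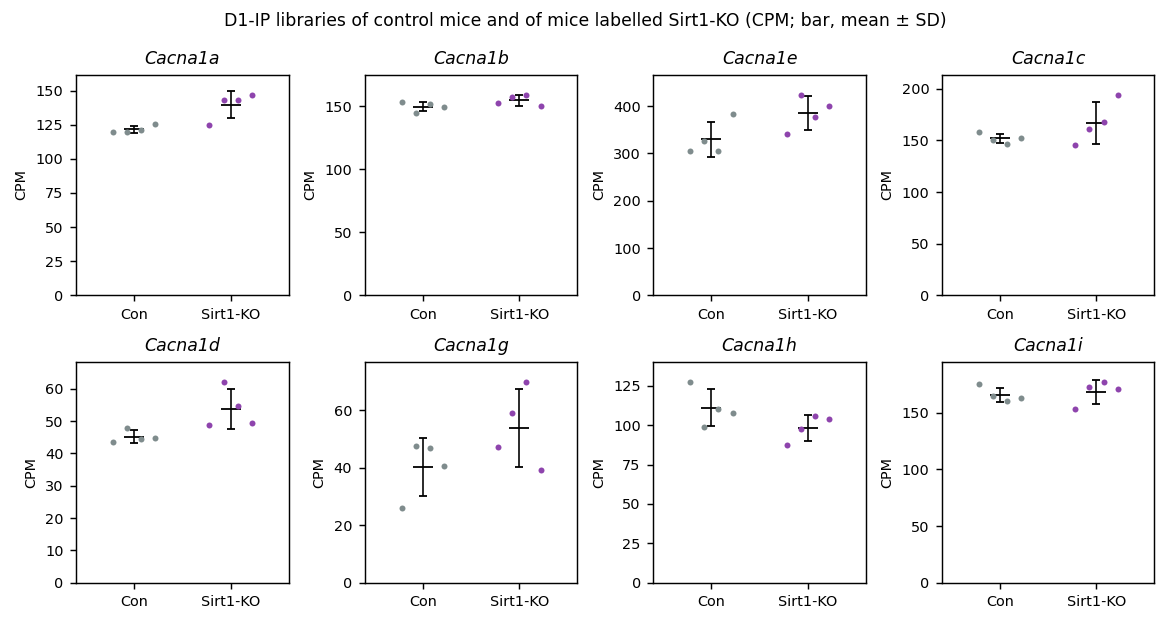
Level of each α1 gene, in CPM on a linear axis from 0, in the 4 D1-IP Con libraries and the 4 libraries labelled Sirt1-KO. Points are libraries and bars give mean ± SD. The groups are apart only in Cacna1d, at 43.5 to 48.0 against 48.8 to 62.2 CPM.

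Across the 12 groups of IP and input libraries, the genes with profiles most like each member were ranked by the root mean square difference of their centred log2 CPM. For Cacna1i they were Ripor1 and Gak, each at 0.027, against 0.30 for the size of the profile of Cacna1i itself. For Cacna1c they were Flrt1 at 0.036 and Caln1 at 0.048, against a profile of 0.24. For Cacna1g they were Lipa at 0.058 and Shank1 at 0.092, against 0.47. The nearest were Hectd4 and Limk2 for Cacna1a, Kctd3 and Smarcc2 for Cacna1b, Ints10 and Ano6 for Cacna1d, Ep400 and Nav1 for Cacna1e, and Sympk and Pcnx3 for Cacna1h, all within 0.025 to 0.036. The profiles of Cacna1b and Cacna1h were small themselves, at 0.053 and 0.065, so a likeness to them is mostly a likeness in being nearly level.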

How the data were processed

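The authors sequenced poly-A libraries made with a stranded kit (paired reads, NextSeq500), trimmed reads with cutadapt, placed them on the mm10 genome with STAR and took gene counts with HTSeq. Versions and the strand setting are not given in the sources used here. They deposited raw counts per gene, and a second table of counts for the libraries labelled Sirt1-KO, which repeats the 4 D1-IP Con libraries with identical values. Each table has 24552 genes and 5 rows that name no gene (such as reads on no feature, 10.4% to 17.6% in IPs and 23.4% to 27.2% in inputs), which were left out. In the main file, 2 columns without a sample were not used. Libraries were sequenced in several sets, but the set of a library is not given, so set could not be a term.

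Counts were filtered (filterByExpr, minimum count 10, minimum total 15), scaled by TMM factors and tested with edgeR 4.0.16 quasi-likelihood tests in R 4.3.3, with Benjamini-Hochberg adjustment over all genes tested. A call is an adjusted p under 0.05 in every comparison. IP contrasts used 1 fit of the 28 IPs (14224 genes), IP against input 1 fit of 46 libraries (15404 genes), inputs an additive fit of line and stress over 18 (15063 genes), and Sirt1-KO a fit of 8 (13626 genes). CPM values of the 46 libraries are on 1 TMM scale and those of the Sirt1-KO table on their own. SEs are the log2 fold change over the root of F, and 95% intervals are normal intervals from those SEs, slightly narrower than intervals from the residual degrees of freedom. Gene positions and lengths are from GENCODE, GRCm38. Intervals and tests cover the spread between pooled samples. The scripts were tested on simulated data. Of the cortical excitatory marker list, 1 gene is not reported here and was left out of its sum. The members, the lists of accessory genes and markers and the tests were chosen with earlier results of these data known. Named by rule were the 8 members, in each comparison up to 4 called accessory genes of largest size, the 2 most alike genes of each member, Sirt1 and the markers; Cacnb and Cacna2d genes, Rims1 and the single marker genes were named beside their counts after their values were seen. Alternatives were RLE factors, both count filters, DESeq2 1.42.0, the replicate block, narrower fits, other thresholds and leaving out each library.

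IP and input of a shared number come from the same pool by the titles and protocol. Of such pairs 9 of 18 correlated above 0.1 in deviations from group means (median 0.10). Of IP and input pairs with different numbers 19 of 66 did (median -0.05). The main fit of IP against input did not pair them. Libraries with like content were checked for duplicates and all 76 replicate pairs differed beyond sampling noise.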

Additional observations from a re-analysis of the deposited data

Results flagged for a closer look

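Among 56 tests of a group's highest or lowest library against the rest of its group, 4 stood out, and chance gives about 1 in 20. Cacna1b was low in D2-IP Con replicate 1, at 144.1 CPM against 162.1 to 167.0 in the other libraries of the group. Cacna1e was high in D1-IP Sus replicate 5, at 517.9 CPM against 354.3 to 390.3. Cacna1i was high in the same library, at 199.9 CPM against 176.1 to 182.5. Cacna1c was high in D2-IP Sus replicate 5, at 263.0 CPM against 187.6 to 205.3. The last 3 fall in libraries numbered 5.

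The IP to input difference was unlike in the 2 lines, by the interaction test, for Cacna1c (D1 minus D2 -0.32, adjusted p = 0.0059) and Cacna1g (0.62, adjusted p = 0.0017).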

How the results depend on the processing

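Of 160 member values (8 members in 20 comparisons), 24 were called, none of these changed sign under any alternative, 14 kept the call under every alternative and 10 lost it under at least 1. Of the 136 not called, 58 changed sign (none larger than 0.13 on the log2 scale) and 9 gained a call. The cause of these changes was not tested. Asking also for a fold over 1.5 left 0 of the 3 members called for D1-IP against D2-IP over the stress groups, 0 of 1 in Con, 1 of 2 in Res, 0 of 2 in Sus, 0 of 8 for D1-IP against input, 2 of 6 for D2-IP against input and 1 of 2 for their difference. In Con, 2 members were called with RLE factors, with all genes of at least 1 count, with genes of a mean of at least 50 counts, with only the libraries compared, or without the libraries numbered 5 (an alternative chosen after seeing the data). In Sus, 1 was called with either count filter or with only the libraries compared. With Con libraries alone, 0 were called for the difference of the IP to input values. At an unadjusted p under 0.05, 2 members passed in D1-IP Sus vs Con, 1 in D1-IP Sus vs Res and 1 in the Res vs Con difference between lines.

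Leaving out each library in turn gave 3 to 4 members for D1-IP against D2-IP over the stress groups, 1 to 3 in Con, 0 to 3 in Res, 0 to 2 in Sus, and 7 to 8 for D1-IP against input. The Con value of Cacna1e was called without D2-IP Con replicate 1 (-0.41, adjusted p = 0.046).

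With the replicate number as a block, 3 members were called in Con (Cacna1c, Cacna1d and Cacna1g), 3 in Res and 2 in the libraries labelled Sirt1-KO, Cacna1d (0.30, adjusted p = 0.018) and Cacna1g (0.65, adjusted p = 0.00061). The Sirt1-KO block fit kept only numbers found in both groups. It left out D1-IP Con replicate 2 and Sirt1-KO replicate 5 and had few residual degrees of freedom. The gained calls therefore cannot be put down to the block alone. The labels do not say that a number marks a shared batch, and not every same-number pair correlated above 0.1 in deviations from group means, so the numbers were not taken as a pairing. In the IP groups 37 of 66 same-number pairs did (median 0.12) against 56 of 260 with different numbers (median -0.04), and all 6 pairs numbered 5 did (0.157 to 0.452). In the inputs 16 of 45 same-number pairs did against 34 of 90, and in the Sirt1-KO comparison 1 of 3 against 4 of 13. Pairing each IP with its input gained 1 call, Cacna1e in D2. That fit kept only pools with both an IP and an input. The IPs without an input, those numbered 5 among them, were left out. Pairing and the change of libraries therefore cannot be told apart in it. A fit of only the libraries compared was not made for the mean over stress groups, which already uses all IPs.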

Other observations

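After the marker levels were seen, each member was compared with the summed level of the 4 cortical excitatory markers, on log2 scales, within D1-IP, D2-IP and input libraries (24 relations, permutation tests with 100000 resamples, two-sided). Other genes were not compared with the markers, so the share of all genes with such relations is not known. In the 13 D1-IPs Cacna1h was lower where the markers were higher, with Pearson's r = -0.87 (permutation p = 6e-05, adjusted 0.00064) and Spearman's rho = -0.83 (permutation p = 0.0007, adjusted 0.0056). Without the 2 libraries farthest from the median marker level r was -0.84, and without the library numbered 5 it was -0.89. In the 15 D2-IPs r was 0.20 for Cacna1h (permutation p = 0.47). Cacna1g in the D1-IPs had r = 0.65 (permutation p = 0.019, adjusted 0.064) and rho = 0.35, but r was -0.0093 without the 2 farthest libraries, so that relation rests on them.

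In the 18 inputs, which hold the whole punch, 4 members were higher where the markers were higher, a count with no share over all genes beside it. Cacna1i had r = 0.84 (permutation p = 1e-05, the smallest these resamples can give, adjusted 0.00024) and rho = 0.74, with r = 0.88 in the D1 line and 0.84 in the D2 line. Cacna1d had r = 0.78 (permutation p = 8e-05, adjusted 0.00064) and rho = 0.85, with 0.81 and 0.86 within the lines. Cacna1a had r = 0.70 (adjusted p = 0.0071 by permutation) and Cacna1c 0.64 (adjusted p = 0.017 by permutation). Cacna1e had 0.57, which missed the threshold (adjusted p = 0.051 by permutation), although its rho passed (adjusted p = 0.036 by permutation). The rho values of Cacna1a, Cacna1c and Cacna1e were 0.70, 0.65 and 0.61, and r without the 2 farthest libraries was 0.56, 0.77 and 0.72.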
